A study of Homo sapiens with 6 samples.

Results

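AP-1 and immediate early transcription factor genes were measured by RNA sequencing in LX-2, a line of human hepatic stellate cells, the liver's vitamin A storing pericytes. The members were the 10 genes FOS, FOSB, FOSL1, FOSL2, JUN, JUNB, JUND, EGR1, MYC and IER3, found by their symbols among 21533 genes of the deposited tables. They were named as a family and not picked by a cut on measured values, although results of these data were known when they were named. All 10 passed the expression filter and were among the 12973 genes tested. The PERK siRNA group held 3 samples of cells transfected with siRNA against PERK, the endoplasmic reticulum stress kinase encoded by EIF2AK3. The control siRNA group held 3 samples of cells transfected with a control siRNA. Both groups then received palmitic acid, a saturated fatty acid, and RNA was collected 24 h later, so both groups saw the lipid and differ in the siRNA; cells without palmitic acid were not analysed here. The sources used here give neither the siRNA sequences nor whether a group's samples were grown as separate cultures. The p-values therefore cover the spread of these 6 samples alone, and that spread may be technical.

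AP-1 is a dimer of basic leucine zipper (bZIP) proteins. JUN proteins pair with one another or with FOS proteins, whereas FOS proteins need a JUN partner to bind DNA. The genes of FOS, FOSB, JUN, JUNB and EGR1 are classic immediate early genes, switched on within minutes by serum, growth factors or stress through MAP kinases and without new protein synthesis, and their mRNAs are short-lived. FOSL1 and FOSL2 (FRA-1 and FRA-2) usually follow later and last longer. In stellate cells, AP-1 is known for its part in activation and in the control of matrix-degrading enzymes.

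Depth was 17937141 to 19535253 total exon reads in the PERK siRNA samples and 18560051 to 19585872 in the control siRNA samples. A count of 3 reads, taken as the floor, corresponded to 0.153 to 0.167 CPM (counts scaled to the library's total exon reads), a floor that covers counting error only. EIF2AK3 averaged 4.95 ± 0.57 CPM with PERK siRNA and 13.3 ± 0.54 CPM with control siRNA (SD, n = 3 each). The targeted gene was thus lower in the samples labelled for it (log2 fold change -1.42, adjusted p = 3.05e-13). Of the 10 stellate markers the summed level was 6290 to 6310 TPM (length-scaled transcript units) with PERK siRNA and 5660 to 5800 TPM with control siRNA. VIM and COL1A1 led that list, DES stayed under 3 reads in every sample, and LRAT was at most 0.183 TPM. The sum hides markers that moved both ways. ACTA2 stood at 54.2 to 61.1 TPM with PERK siRNA and 13.2 to 17.5 TPM with control siRNA. COL1A2 stood at 17.6 to 19.6 TPM with PERK siRNA and 7.96 to 8.2 TPM with control siRNA. PDGFRB was lower, at 22.9 to 24.1 TPM with PERK siRNA and 25.1 to 27.5 TPM with control siRNA. Of the 6 hepatocyte markers 5, ALB included, stayed under 3 reads in every sample, as did 2 of 6 endothelial, 3 of 7 blood cell and 2 of 5 cholangiocyte markers. The hepatocyte list summed to 2.82 to 3.55 TPM with PERK siRNA and 3.10 to 4.04 TPM with control siRNA. Endothelial markers summed to 1.65 to 1.98 TPM with PERK siRNA and 5.61 to 5.88 TPM with control siRNA, and cholangiocyte markers to 85.6 to 94.8 TPM with PERK siRNA and 131 to 138 TPM with control siRNA. Macrophage and blood cell markers summed to 120 to 123 TPM with PERK siRNA and 132 to 138 TPM with control siRNA. Every sample was labelled LX-2, a single line, so these sums are levels of marker genes in its bulk RNA and not counts of other cell types. The part of these markers in the results was not tested.

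With PERK siRNA the family split. IER3 fell to 25.7% of its control level and JUNB to 62.0%, EGR1 was 2.00-fold higher, FOSL2 and MYC rose, and JUN was higher by a small amount, while FOS, FOSB, FOSL1 and JUND did not pass the test. Thus 4 members were higher and 2 lower at an adjusted p under 0.05 by edgeR's quasi-likelihood test. Of all genes tested 34.4% were called higher and 35.0% lower, together 69.5%, so 6 calls among 10 genes is a share near the background. The 3 samples of one group lay wholly above those of the other for 6 members, against 71.8% of all genes tested. Among members with a mean of at least 20 CPM, 6 of 8 were called, beside 77.9% of the 7915 genes tested at that level. The median log2 fold change of the members was 0.06, against 0.004 for all genes, and their median absolute change was 0.25, against 0.28 for all genes. The members together took 0.107 to 0.108% of the reads with PERK siRNA and 0.107 to 0.111% with control siRNA.

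**Figure D1:**
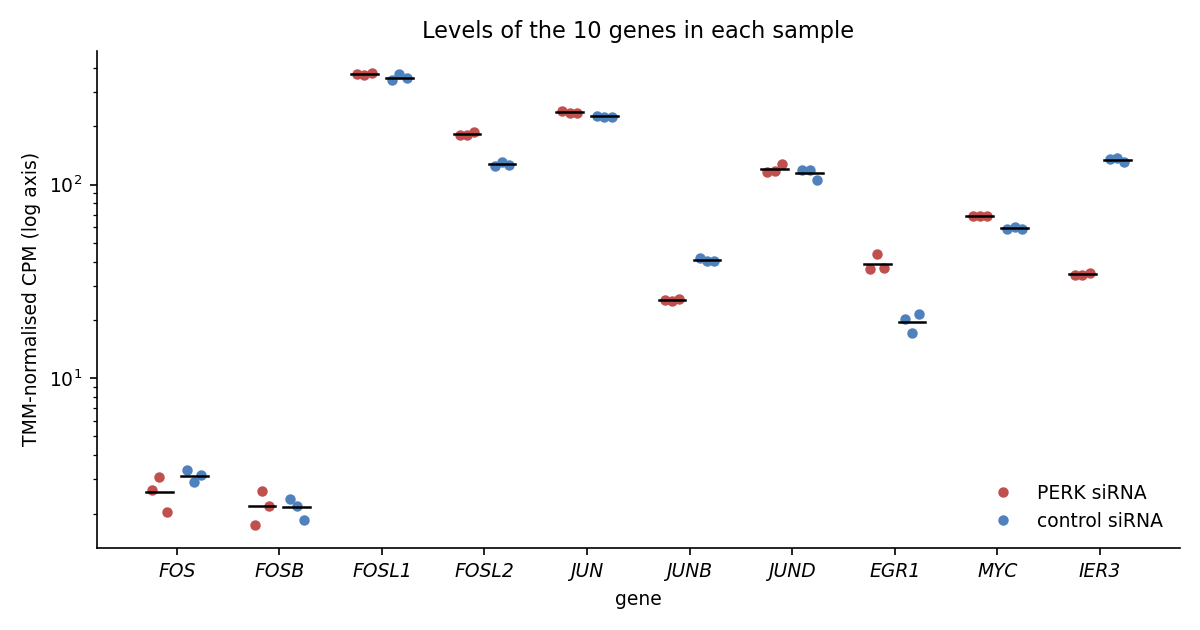
TMM-normalised CPM (log axis) of the 10 genes in each of the 3 PERK siRNA (red, left) and 3 control siRNA (blue, right) samples, with black bars at the group means. IER3, JUNB, EGR1, FOSL2, MYC and JUN show groups that do not overlap, and FOS and FOSB lie near the bottom at 1.74 to 3.36 CPM.

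FOSL1, which encodes FRA-1, was the most abundant member (ENSG00000175592, chromosome 11, 65892049 to 65900573, minus strand, GRCh38). It stood at 370, 366 and 375 CPM with PERK siRNA and at 345, 370 and 353 CPM with control siRNA. The groups overlapped through control sample 2. Its log2 fold change of 0.06 (95% interval 0.00 to 0.11) had an adjusted p of 0.052. Without control sample 2 it passed, with a log2 fold change of 0.09 (adjusted p = 0.0024), and the adjusted p ran from 0.0024 to 0.33 over the alternatives. Behind these levels lay 6593 to 7212 FOSL1 reads a sample with PERK siRNA and 6778 to 6901 with control siRNA.

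FOSL2, which encodes FRA-2 (ENSG00000075426, chromosome 2, 28392448 to 28417312, plus strand), was the member of the FOS family that rose. It stood at 181, 180 and 186 CPM with PERK siRNA and at 125, 130 and 126 CPM with control siRNA. Every PERK siRNA sample lay above every control sample. The log2 fold change was 0.52 (SE 0.03, 95% interval 0.46 to 0.58, adjusted p = 5.2e-16), a 1.44-fold difference.

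FOS and FOSB, the founding immediate early members, were scarce in both groups. FOS (ENSG00000170345, chromosome 14, 75278774 to 75282230, plus strand) stood at 2.63, 3.07 and 2.03 CPM with PERK siRNA and at 3.36, 2.90 and 3.16 CPM with control siRNA, from 39 to 60 reads with PERK siRNA and 54 to 66 with control siRNA. FOSB (ENSG00000125740, chromosome 19, 45467995 to 45475179, plus strand) stood at 1.74, 2.61 and 2.19 CPM with PERK siRNA and at 2.39, 2.20 and 1.86 CPM with control siRNA, from 31 to 51 reads with PERK siRNA and 36 to 47 with control siRNA. The groups overlapped for both genes. The log2 fold change was -0.28 for FOS (95% interval -0.66 to 0.09, adjusted p = 0.17) and 0.02 for FOSB (-0.40 to 0.45, adjusted p = 0.93). At this depth a change of FOS down to 0.635-fold, or of FOSB between 0.758-fold and 1.36-fold, lay within the 95% intervals.

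JUN, the prototype AP-1 partner, is a gene without introns (ENSG00000177606, chromosome 1, 58780788 to 58784327, minus strand). It stood at 241, 233 and 233 CPM with PERK siRNA and at 227, 223 and 224 CPM with control siRNA. The groups did not overlap, but the difference was only 1.05-fold (log2 fold change 0.07, SE 0.03, adjusted p = 0.020). Leaving out PERK siRNA sample 1 ended that call (adjusted p = 0.10), and so did leaving out control sample 3 (0.052).

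JUNB, a JUN paralog that can oppose JUN at some promoters (ENSG00000171223, chromosome 19, 12791496 to 12793315, plus strand), fell. It stood at 25.2, 24.9 and 25.7 CPM with PERK siRNA and at 41.5, 40.5 and 40.4 CPM with control siRNA. The groups lay far apart. The coefficient of variation, 1.65% with PERK siRNA and 1.45% with control siRNA, was below the 4.58% and 3.57% that counting alone gives. So close a spread of 3 samples is therefore no measure of their precision. The log2 fold change was -0.69 (SE 0.05, 95% interval -0.79 to -0.59, adjusted p = 3.2e-13), leaving 62.0% of the control level. Of the JUNB exon bases 14.2% overlap HOOK2 on the opposite strand, and whether the authors' counting used strand is not given in the sources used here. HOOK2 itself averaged 13.2 ± 0.89 CPM with PERK siRNA and 9.68 ± 0.43 CPM with control siRNA (SD, n = 3 each), a rise of 0.45 on the log2 scale (adjusted p = 3.5e-05).

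JUND, the JUN paralog that is expressed most evenly across tissues (ENSG00000130522, chromosome 19, 18279760 to 18281622, minus strand), did not pass the test. It stood at 116, 117 and 127 CPM with PERK siRNA and at 119, 119 and 106 CPM with control siRNA. The groups overlapped, with PERK siRNA sample 3 the highest and control sample 3 the lowest. The log2 fold change was 0.07 (95% interval -0.04 to 0.17, adjusted p = 0.23). Its coefficient of variation of 5.10% with PERK siRNA and 6.29% with control siRNA was above the 2.10% and 2.13% that counting alone gives.

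**Figure D2:**
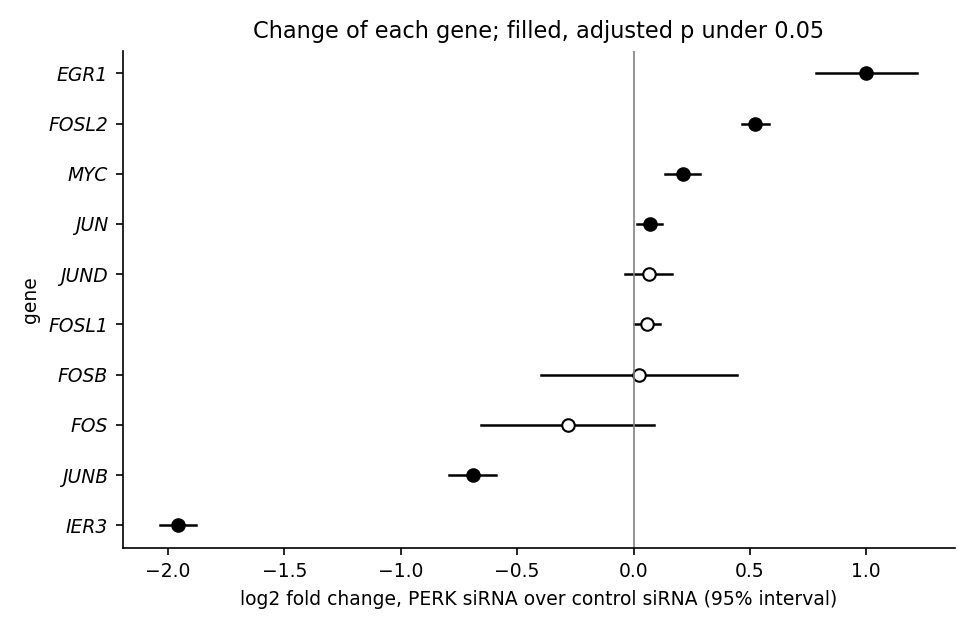
Log2 fold change of each gene, PERK siRNA over control siRNA, with its 95% interval from the edgeR fit, ordered from EGR1 (1.00) at the top to IER3 (-1.96) at the bottom. Filled points passed an adjusted p under 0.05, and the widest intervals are those of the scarce FOSB and FOS.

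EGR1, a zinc finger immediate early factor that binds GC-rich sites (ENSG00000120738, chromosome 5, 138465490 to 138469315, plus strand), rose. It stood at 36.5, 43.8 and 36.9 CPM with PERK siRNA and at 20.1, 17.1 and 21.5 CPM with control siRNA. Every PERK siRNA sample lay above every control sample. EGR1 averaged 39.1 ± 4.08 CPM with PERK siRNA and 19.5 ± 2.27 CPM with control siRNA (SD, n = 3 each), a 2.00-fold difference (95% interval 1.72 to 2.33; log2 fold change 1.00, SE 0.10, adjusted p = 6.9e-06). EGR1 varied more between samples of a group than any other member with a mean of at least 20 CPM. Its coefficient of variation was 10.4% with PERK siRNA and 11.6% with control siRNA, where counting alone gives 3.68% and 5.16%. In size its change exceeded that of 91.8% of the genes tested.

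IER3 (IEX-1), an immediate early gene whose product is no transcription factor but a small protein that modulates cell survival and ERK signalling, changed most of the 10. The gene (ENSG00000137331) lies on chromosome 6, 30743199 to 30744554, minus strand. It stood at 34.2, 34.3 and 35.1 CPM with PERK siRNA and at 135, 137 and 131 CPM with control siRNA. The 2 groups were separated by far more than the spread within either. The log2 fold change was -1.96 (SE 0.04, 95% interval -2.03 to -1.88, adjusted p = 5.7e-27), leaving 25.7% of the control level, a change larger than that of 98.9% of the genes tested. Of the IER3 exon bases 26.5% overlap the antisense gene IER3-AS1, which was not analysed here, so without strand their reads cannot be told apart. For all 10 members 100% of reads were placed uniquely.

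Promoter windows from RefSeq (GRCh38.p14, 250 bases before to 50 after the start) were read for 7 of the 10 members. FOSL1, MYC and IER3 are not shown. The 4 windows printed here are of EGR1 and FOSL2, which rose, of JUN, which was slightly higher, and of JUNB, which fell. Capitals mark motifs searched on both strands: the AP-1 site TGACTCA, the cyclic AMP response element (CRE) TGACGTCA, its first 6 letters TGACGT, the JUN-type site TGACATCA, the CArG box of serum response factor, the E-box CACGTG and the EGR sites GCGGGGGCG and GCGTGGGCG. TGACGT is contained in TGACGTCA, so a match of the longer motif is one of the shorter. The motifs TGACGT and TGACATCA were added to the search after the windows had been read.
EGR1 promoter, chr5:138465229-138465528, plus strand: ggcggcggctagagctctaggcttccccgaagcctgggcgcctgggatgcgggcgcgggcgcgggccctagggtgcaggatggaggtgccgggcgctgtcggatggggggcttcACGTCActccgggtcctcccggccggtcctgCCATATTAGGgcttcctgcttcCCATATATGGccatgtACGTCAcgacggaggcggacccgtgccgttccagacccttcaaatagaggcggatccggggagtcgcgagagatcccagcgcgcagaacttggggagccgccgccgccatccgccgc
FOSL2 promoter, chr2:28392608-28392907, plus strand: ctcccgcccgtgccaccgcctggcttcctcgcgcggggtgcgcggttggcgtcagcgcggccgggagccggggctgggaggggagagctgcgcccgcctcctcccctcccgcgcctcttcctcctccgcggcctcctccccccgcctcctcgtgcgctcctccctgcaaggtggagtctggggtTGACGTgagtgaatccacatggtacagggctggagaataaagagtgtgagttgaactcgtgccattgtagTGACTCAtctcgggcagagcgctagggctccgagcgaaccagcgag
JUN promoter, chr1:58783998-58784297, minus strand: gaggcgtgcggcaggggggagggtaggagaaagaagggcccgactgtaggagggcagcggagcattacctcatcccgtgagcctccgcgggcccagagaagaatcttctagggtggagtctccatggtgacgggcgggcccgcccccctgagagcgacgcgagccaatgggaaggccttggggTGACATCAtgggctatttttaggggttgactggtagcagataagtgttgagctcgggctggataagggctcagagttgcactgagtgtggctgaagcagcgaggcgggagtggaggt
JUNB promoter, chr19:12791236-12791535, plus strand: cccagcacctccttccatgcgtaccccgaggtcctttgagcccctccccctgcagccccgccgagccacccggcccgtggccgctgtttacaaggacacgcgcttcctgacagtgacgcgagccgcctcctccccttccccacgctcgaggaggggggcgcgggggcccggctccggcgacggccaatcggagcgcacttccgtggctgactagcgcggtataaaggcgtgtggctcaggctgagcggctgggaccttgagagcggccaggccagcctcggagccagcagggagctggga

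The EGR1 window held 2 CArG boxes, from 105 to 96 and from 83 to 74 bases upstream of the start, while 1.29% of the 35116 promoter windows in the table and 1.11% of the 15365 windows of tested genes held any. It also held TGACGT on the minus strand from 136 to 131 and from 67 to 62 bases upstream. The FOSL2 window held TGACTCA from base 5 to base 11 after the start, a motif in 4.95% of all windows and 3.49% of those of tested genes, and TGACGT from 66 to 61 bases upstream. FOS and FOSB held TGACGT at nearly the same place, from 64 to 59 and from 60 to 55 bases upstream, and 7.98% of all windows and 10.4% of those of tested genes held it. JUN held TGACATCA from 67 to 60 bases upstream, which 2.61% of all windows and 1.58% of those of tested genes held. JUND held a full TGACGTCA from 200 to 193 bases upstream, which 1.85% of all windows and 2.76% of those of tested genes held, and TGACGT on the minus strand from 87 to 82 bases upstream. The JUNB window held none of these letters, and no E-box or EGR site was in any of the 7 windows. E-box letters were in 7.26% of all windows and 9.26% of those of tested genes, GCGGGGGCG in 5.07% and 7.89%, and GCGTGGGCG in 0.795% and 1.22%. A match is a description of the letters and shows no binding.

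**Figure D3:**
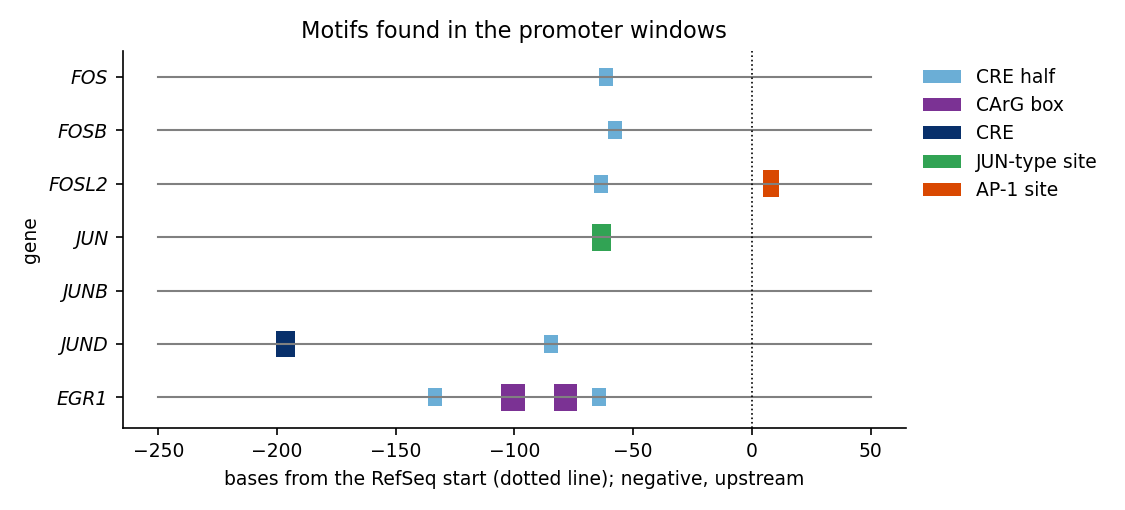
Motifs in the 7 promoter windows by distance from the RefSeq start (horizontal axis, bases), 1 row per gene. CRE-type letters (light blue) recur from 67 to 55 bases upstream in EGR1, FOSL2, FOS and FOSB, the 2 CArG boxes stand in EGR1, and the JUNB row is empty. Sites outside the windows were not searched.

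The 3′ untranslated regions (UTRs) of many immediate early mRNAs carry AU-rich elements, built from the pentamer ATTTA, that shorten mRNA life. In the GENCODE v29 transcript with the longest coding sequence, all 10 members held at least 1 ATTTA, beside 68.8% of 12685 tested genes with an annotated 3′ UTR. The counts were 9 in FOSL2, 6 in IER3, 5 in FOS, 4 in MYC, 3 each in FOSB and JUN, 2 in JUNB and 1 each in FOSL1, JUND and EGR1. These counts were not scaled to UTR length, so they give no order of AU-richness. The UTR was longest in FOSL2 (4864 bases) and shortest in MYC (476 bases). It had 2166 bases in FOSB, 806 in FOS and 737 in IER3. The median over the tested genes was 1036 bases and 2 pentamers. The longer TTATTTATT was in FOS and FOSL2 and in 8.26% of all genes. Since all 10 members held ATTTA, its presence alone says nothing about which members rose or fell. The part of these elements in the changes was not tested. The windows of 30 bases with most pentamers are printed for IER3 and JUNB, which fell, FOSL2, which rose, and the scarce FOS. Capitals mark ATTTA.
IER3 3′ UTR, chr6:30743648-30743677, minus strand: taattaatATTTAtatgtATTTAtgtacgt
JUNB 3′ UTR, chr19:12793059-12793088, plus strand: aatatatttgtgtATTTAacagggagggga
FOSL2 3′ UTR, chr2:28416348-28416377, plus strand: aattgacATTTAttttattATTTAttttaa
FOS 3′ UTR, chr14:75282057-75282086, plus strand: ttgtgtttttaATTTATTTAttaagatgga

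Per length, the order of the members was set by FOSL1 in both groups. In TPM, the authors' value per exon length, FOSL1 averaged 681.8 ± 6.69 with PERK siRNA and 658.1 ± 28.4 with control siRNA (SD, n = 3 each). With PERK siRNA it was followed by JUN (225.8 ± 3.31 TPM) and JUND (216.1 ± 10.9 TPM), which overlapped, FOSL2 (89.6 ± 1.40 TPM) and IER3 (88.9 ± 1.26 TPM), which overlapped, JUNB (48.0 ± 0.63 TPM), MYC (44.7 ± 0.38 TPM) and EGR1 (43.3 ± 4.82 TPM), of which MYC and EGR1 overlapped. The scarce FOS (3.11 ± 0.64 TPM) and FOSB (1.36 ± 0.28 TPM) came last. With control siRNA the second place was held by IER3 (346.9 ± 9.92 TPM), followed by JUN (216.2 ± 2.34 TPM) and JUND (207.6 ± 14.4 TPM), which overlapped. JUNB (77.8 ± 1.27 TPM) there stood above FOSL2 (62.7 ± 1.70 TPM), and MYC (38.8 ± 0.83 TPM), EGR1 (21.7 ± 2.35 TPM), FOS (3.79 ± 0.26 TPM) and FOSB (1.35 ± 0.17 TPM) followed without overlap. With PERK siRNA, IER3 thus stood below JUN, JUND and level with FOSL2, and FOSL2 stood above JUNB. The exon length behind TPM counts all annotated exons of a gene, 5349 bases for MYC and 7065 for FOSL2, so levels of genes with many annotated exons may be understated.

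The summed level of the 7 FOS and JUN genes was 1254, 1259 and 1284 TPM with PERK siRNA and 1217, 1271 and 1195 TPM with control siRNA, and the groups overlapped. FOSL1 made up 53.9 ± 0.16% of that sum with PERK siRNA and 53.6 ± 1.1% with control siRNA (SD, n = 3 each). JUN took 17.8 ± 0.47% with PERK siRNA and 17.6 ± 0.53% with control siRNA, and JUND 17.1 ± 0.64% with PERK siRNA and 16.9 ± 0.85% with control siRNA, both within the spread. What differed was the smaller part. FOSL2 took 7.08 ± 0.02% with PERK siRNA and 5.11 ± 0.04% with control siRNA, and JUNB took 3.79 ± 0.01% with PERK siRNA and 6.34 ± 0.19% with control siRNA. Counting alone gives FOSL2 reads a coefficient of variation of 1.71% with PERK siRNA and 2.03% with control siRNA. For JUNB reads it gives 4.58% and 3.57%. Relative to their means these SDs are smaller, so they are no measure of precision. FOS and FOSB together made up under 1% in each sample, with FOS at 0.246 ± 0.053% with PERK siRNA and 0.309 ± 0.028% with control siRNA. The ratio of FOS-family to JUN-family TPM was 1.59, 1.59 and 1.57 with PERK siRNA and 1.37, 1.49 and 1.48 with control siRNA. The groups did not overlap, which also held for 71.8% of the single genes tested. These mRNA shares are a description without a test, and protein was not measured here.

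**Figure D4:**
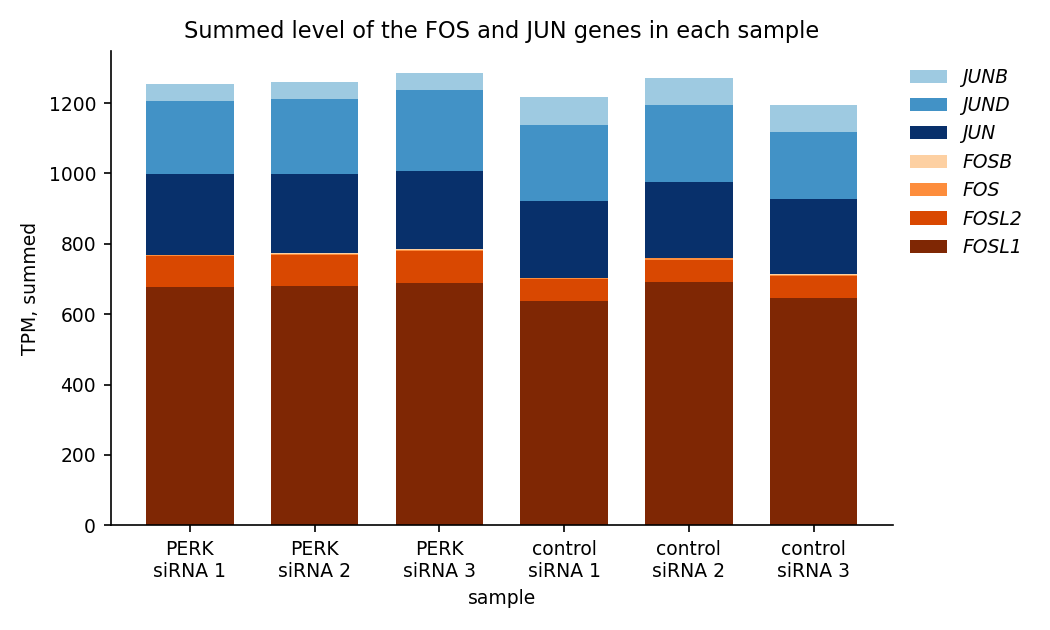
Summed TPM of the 4 FOS genes (orange to brown) and 3 JUN genes (blue) in each PERK siRNA sample (left 3 bars) and control siRNA sample (right 3 bars). The totals lie between 1195 and 1284 TPM, FOSL1 is the largest segment of each bar, and the JUNB segment at the top is thinner with PERK siRNA.

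MYC, a bHLH zipper factor of growth genes that is also an immediate early gene (ENSG00000136997, chromosome 8, 127735434 to 127741434, plus strand), was slightly higher. It stood at 68.6, 68.9 and 68.8 CPM with PERK siRNA and at 59.0, 60.3 and 58.9 CPM with control siRNA. The groups did not overlap, and the log2 fold change was 0.21 (SE 0.04, 95% interval 0.14 to 0.29, adjusted p = 8.9e-06), a 1.16-fold difference. Its coefficient of variation, 0.204% with PERK siRNA and 1.36% with control siRNA, was below the 2.78% and 2.96% that counting alone gives. Of 10 tested genes of the MYC dimerisation network, 3 were higher and 5 lower, beside 34.4% higher and 35.0% lower of all genes tested, with a median log2 fold change of -0.07. MXD4 and MXD3, which encode MAX partners that oppose MYC, rose by 1.04 and 0.54 on the log2 scale, and so did MXI1 (0.57), while MLX fell (-0.51). Of the MXD3 exon bases 40.4% and of the MLX exon bases 18.1% overlap another coding gene. For MLX 74.3% of reads were placed uniquely. Of 18 textbook MYC target genes, 11 were lower and 4 higher, against the same 35.0% and 34.4% of all genes, with a median of -0.19. ODC1, the rate-limiting enzyme of polyamine synthesis, averaged 184.3 ± 4.46 CPM with PERK siRNA and 336.2 ± 8.62 CPM with control siRNA (SD, n = 3 each; -0.87). LDHA (-0.64) and TFRC (-0.43) also fell, and CAD, of pyrimidine synthesis, rose (0.57).

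Other bZIP partners of AP-1 moved both ways, with 3 higher and 3 lower among 10 tested and a median of 0.01. The share called was near the 69.5% of all genes. JDP2, a repressor that dimerises with JUN, averaged 12.2 ± 0.94 CPM with PERK siRNA and 4.79 ± 0.21 CPM with control siRNA (SD, n = 3 each), which is 1.34 on the log2 scale (SE 0.10, adjusted p = 1.45e-12). ATF7 rose (0.69), and the small MAF genes MAFG (-0.71) and MAFK (-0.70) fell. For ATF7 77.9% and for MAFK 74.8% of reads were placed uniquely. Of their exon bases 18.2% and 18.1% overlap another coding gene.

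Other immediate early genes moved both ways. Of 16 tested, 8 fell and 4 rose, with a median of -0.15, where 35.0% of all genes fell and 34.4% rose. The Krüppel-like factor genes KLF10 (-0.96) and KLF4 (-1.23) and the gene IER2 (-0.80) fell, while KLF2, of the same family as KLF4, rose, at 58.0 ± 1.74 CPM with PERK siRNA and 26.7 ± 1.96 CPM with control siRNA (SD, n = 3 each; 1.12). EGR2, a paralog of EGR1, averaged 0.60 ± 0.13 CPM with PERK siRNA and 3.23 ± 0.37 CPM with control siRNA (SD, n = 3 each), which is -2.41 on the log2 scale (SE 0.24, adjusted p = 6.1e-10), from 9 to 70 reads a sample. CCN1, a matricellular immediate early gene, rose (0.78, adjusted p = 1.2e-13). Both EGR2 and CCN1 were picked with their values in view. Counts in this list moved with the processing, and the excess of falls over rises was not stable. DESeq2 called 5 lower and 4 higher, 7 were lower and 7 higher without PERK siRNA sample 2, and 6 were lower and 5 higher without control sample 2.

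Serum response and CREB factors that drive immediate early promoters, listed with the EGR corepressors NAB1 and NAB2, gave 5 rises and 3 falls among 13 tested, with a median of 0.05. That share called was near the 69.5% of all genes. SRF, the serum response factor that binds CArG boxes, averaged 66.4 ± 1.76 CPM with PERK siRNA and 54.8 ± 1.19 CPM with control siRNA (SD, n = 3 each; 0.28, adjusted p = 3.0e-07). Its ternary complex partner ELK4 rose (0.74), ELK1, of the same family, fell (-0.26), and NAB1, a corepressor of EGR proteins, rose (0.38). Of 16 kinases of the ERK and JNK cascades, 8 fell and 3 rose, with a median of -0.14, and the 11 called are a share near the 69.5% of all genes. MAP2K4, a kinase that activates JNK and p38, averaged 29.8 ± 1.60 CPM with PERK siRNA and 61.3 ± 1.70 CPM with control siRNA (SD, n = 3 each; -1.04). The MEK1 gene MAP2K1 (-0.46, with 90.8% of reads placed uniquely) and RPS6KA2 (-0.78) fell, and the ERK5 gene MAPK7 rose (0.52).

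Of 16 tested genes known for AP-1 sites, 12 fell and 2 rose, where 35.0% of all genes fell and 34.4% rose. Their median log2 fold change was -0.79, against 0.004 over all genes. The list was named with earlier results of these data known, so its median is no independent evidence. PLAU, the urokinase gene, averaged 21.6 ± 1.38 CPM with PERK siRNA and 148.5 ± 3.04 CPM with control siRNA (SD, n = 3 each; -2.78), and 31.1% of its exon bases overlap another coding gene. MMP9, a gelatinase gene, averaged 18.9 ± 0.55 CPM with PERK siRNA and 69.5 ± 3.46 CPM with control siRNA (SD, n = 3 each; -1.88). The urokinase receptor gene PLAUR (-0.94) and the chemokine gene CCL2 (-1.57) fell too. The 2 that rose were CCND1, of cyclin D1 (0.45), and VIM, of vimentin (0.25), both chosen after their values were seen. Of 8 textbook EGR1 targets 4 fell and 4 did not pass the test, with a median of -0.17. The 4 called of 8 are a lower share than the 69.5% of all genes, a difference that was not tested in so short a list. TGFB1 averaged 185.8 ± 4.27 CPM with PERK siRNA and 296.2 ± 11.7 CPM with control siRNA (SD, n = 3 each; -0.67), and PDGFB (-1.25) and ICAM1 (-0.84) fell.

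**Figure D5:**
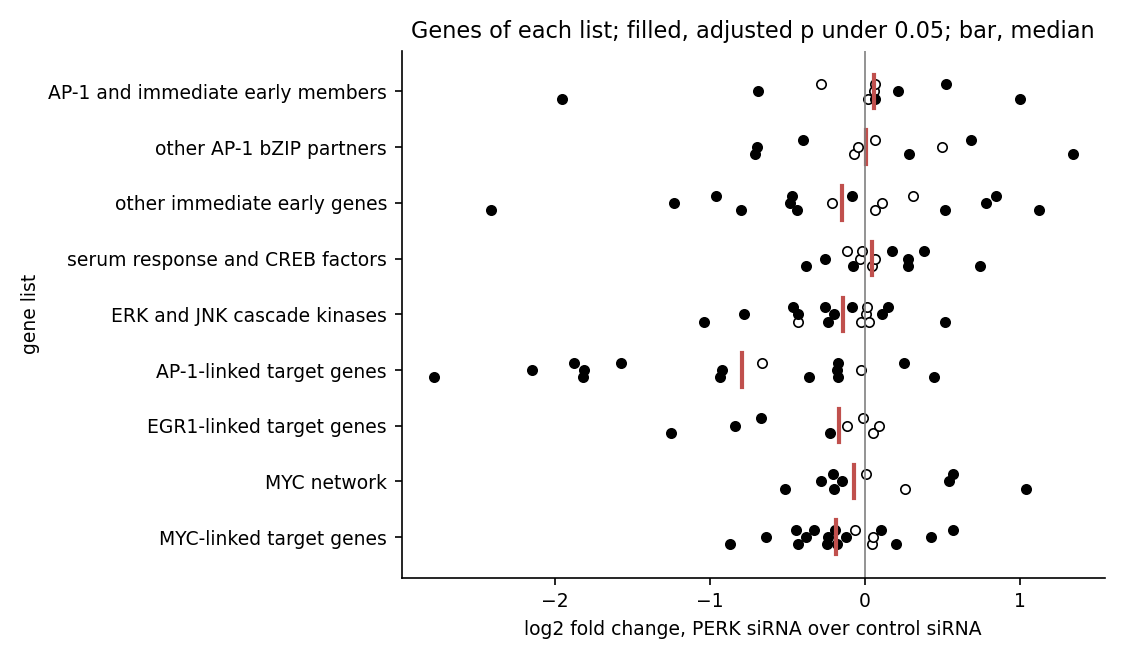
Log2 fold change, PERK siRNA over control siRNA, of each tested gene in the 9 lists, with a red bar at each list's median and filled points for an adjusted p under 0.05. The AP-1-linked targets have a median of -0.79, and the other lists have medians between -0.19 and 0.06.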

How the data were processed

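Total RNA gave directional libraries, per the labels' protocols. Reads were assigned to hg38, per the submitters' processing notes; the aligner, the counter and its use of strand: not given in the sources used here. Per the file headers, the authors deposited, for each gene, counts (total exon reads and, of these, the unique ones) and TPM values. TPM equalled total exon reads per exon length to within a relative difference of 7.1e-08 and served only for levels between genes. Total exon reads were tested with edgeR 4.0.16 in R 4.3.3 (quasi-likelihood, TMM factors, default expression filter, robust, no covariate), PERK siRNA against control siRNA, with p-values adjusted by Benjamini and Hochberg over 12973 genes at a threshold of 0.05. SE and 95% intervals came from that fit, and CPM are TMM-normalised unless said otherwise. Replicates of a group differed by more than sampling noise (chi-square per degree of freedom 1.65 to 2.31), so none was taken for a copy.

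Gene places and 3′ UTRs came from GENCODE v29 on GRCh38, the assembly of hg38, and promoters from RefSeq. The members and the lists were chosen with earlier results of these data known. Named list genes were the 4 with the smallest adjusted p of each list; others are said to be chosen later, and 1 gene the rule picked is not reported here. Lists got counts and medians and no set test. Alternatives were other scaling, filters, DESeq2 1.42.0, limma-voom (limma 3.58.1), unique exon reads, a replicate block and leaving out each sample.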

Additional observations from a re-analysis of the deposited data

How the results depend on the processing

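Of 140 member values under 14 alternatives, 132 kept their direction and their side of the threshold. IER3, JUNB, EGR1, FOSL2 and MYC passed in all 14, and FOS and JUND in none. FOSL1 passed with limma-voom (0.06, adjusted p = 0.045), on unique exon reads (0.06, adjusted p = 0.039), with the replicate block (0.06, adjusted p = 0.043) and without control sample 2. JUN failed without PERK siRNA sample 1 or control sample 3. FOSB, never called, ran from -0.129 to 0.156 when 1 sample was left out, and was -0.13 without PERK siRNA sample 2 and -0.07 without control sample 3. For the other methods the cause was not tested.

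The labels do not say whether same-numbered samples were paired. Deviations of same-numbered samples from their group means correlated at 0.057, 0.036 and -0.07, and those of differently numbered samples at -0.101 to 0.07. With 3 samples a group, these values cannot decide whether there was pairing. The replicate block called 4460 genes higher and 4543 lower, against 4469 and 4545 without it. With the block the edgeR adjusted p of EGR1 was 0.0029, against 6.9e-06 without it. Counts of the lists stayed within 1.5 times, except that among other immediate early genes DESeq2 called 5 lower, and leaving out 1 sample gave 4 to 7 higher. The 33 other genes checked, EIF2AK3 and those picked by the rule, kept their call in all 462 values under the 14 alternatives. The median of all genes was -0.007 without scaling factors and 0.004 with median-ratio scaling. Depth limits FOS and FOSB, where counting alone gives a coefficient of variation of 12.9 to 15.6%.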
